A study of Rattus norvegicus with 20 samples.

Results

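The genes described here are 36 genes of the fibrillar extracellular matrix and of collagen processing, out of 13597 genes measured in rat oesophageal tissue. They were taken by name from a list, and all 36 had at least 1 probe well above background on 4 or more of 20 arrays (48 probes in all). The study induced reflux oesophagitis by surgery in Wistar rats and took the oesophagus 10 days later, and its question, as far as the design states it, was how drug treatment changed the tissue. Total RNA was labelled with Cy3 and hybridised to 1-colour Agilent arrays, with 4 replicate arrays in each of 5 groups. In 1 group 2 arrays were nearly the same and were counted as 1 sample, as described below. The groups were sham-operated rats, which had no reflux surgery, untreated rats with oesophagitis, rats with oesophagitis given STW5 at 0.5 ml/kg, the same at 2 ml/kg, and rats with oesophagitis given omeprazole at 30 mg/kg. STW5 is a fixed combination of herbal extracts, and omeprazole lowers acid secretion by inhibiting the proton pump of the stomach. Either drug was given for 7 days before surgery and for the 10 days after it. Blood samples were not analysed here.

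Fibrillar collagens are made as procollagen chains that are hydroxylated and folded in the endoplasmic reticulum, trimmed outside the cell and cross-linked by lysyl oxidases. In the oesophagus this matrix lies in the submucosa, around muscle bundles and in the lamina propria beneath a squamous epithelium. In a healing ulcer, fibroblasts first lay down a provisional matrix with fibronectin, tenascin C, versican and thrombospondins, and collagen follows.

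Levels below are log2 signals with the 75th percentile of each array set to 0, so that a level says how bright 1 probe was in 1 sample and cannot be set against the level of another gene. A change is the difference of 2 group means in log2 units with its standard error from a limma fit over all 5 groups, and a gene was called at a Benjamini-Hochberg adjusted p under 0.05 over all 13597 genes. The p-values measure the spread between these rats. The tissue is a mixture, and fewer cells of a type and less RNA per cell cannot be told apart.

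The share of features well above background was between 61.5% and 70.5% over the 20 arrays. Sham arrays lay on slide 1, untreated arrays and those labelled 0.5 ml/kg on slide 2, and arrays labelled 2 ml/kg or omeprazole on slide 3, so a difference between groups on different slides cannot be told apart from one between slides. Replicates 1 and 2 labelled 0.5 ml/kg were nearly the same array. Their spots differed by 1.1 times the spread between spots of a probe on 1 array, against at least 2.59 times for the other pairs within a group. Between groups the closest pair, sham replicate 2 and omeprazole replicate 2, differed by 2.175 times. Replicates 1 and 2 labelled 0.5 ml/kg were averaged and counted as 1 sample, which left n = 3 in that group and 19 samples in all. The dose labels are not settled. The deposited values have 20 columns, and 8 of these, all of STW5 rats, are matched by a scanner file labelled with the opposite dose, and the series' own numbering of the STW5 groups differs from that in the sample titles. The scanner files are used here under their own labels, and every value given for a dose belongs to samples labelled with it.

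After reflux surgery 6 of 9 wound matrix genes, 4 of 5 collagen processing genes and 6 of 8 collagens of basement membranes, vessel walls and fibril bridges were called higher, and the chains of collagens I and III were not called. The median change by role was 2.65 in wound matrix genes, 1.53 in basement membrane, vessel wall and bridging collagens, 1.44 in processing genes, 1.04 in fibrillar collagens, 0.94 in small proteoglycans and 0.27 in elastic fibre genes. Of the 36 genes, 20 were higher in untreated than in sham rats and 0 were lower, against 15% of all genes called higher, 17.9% called lower and 32.9% called in either direction. The median change of the 36 genes was 1.03, beside -0.08 for all genes tested. The largest changes between measured groups were those of Tnc, Vcan, Thbs2, Lox and Spon1, from 3.93 down to 2.65 log2 units, and that of Thbs1 is known as a bound, since its sham level was not well above background. Col1a1, Col1a2 and Col3a1, the chains of the most abundant fibrillar collagens, changed by 0.86, 0.57 and 0.19 and were not called. In 10 genes every untreated sample lay above every sham sample, against 11.7% of all genes. Leaving out sham replicate 1 lowered the count from 20 to 10, and leaving out untreated replicate 1 lowered it to 11. The 10 genes called whichever 1 sample was left out were Thbs1, Tnc, Vcan, Spon1, Lox, Plod2, Col4a1, Col4a2, Col8a1 and Col18a1.

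**Figure D1:**
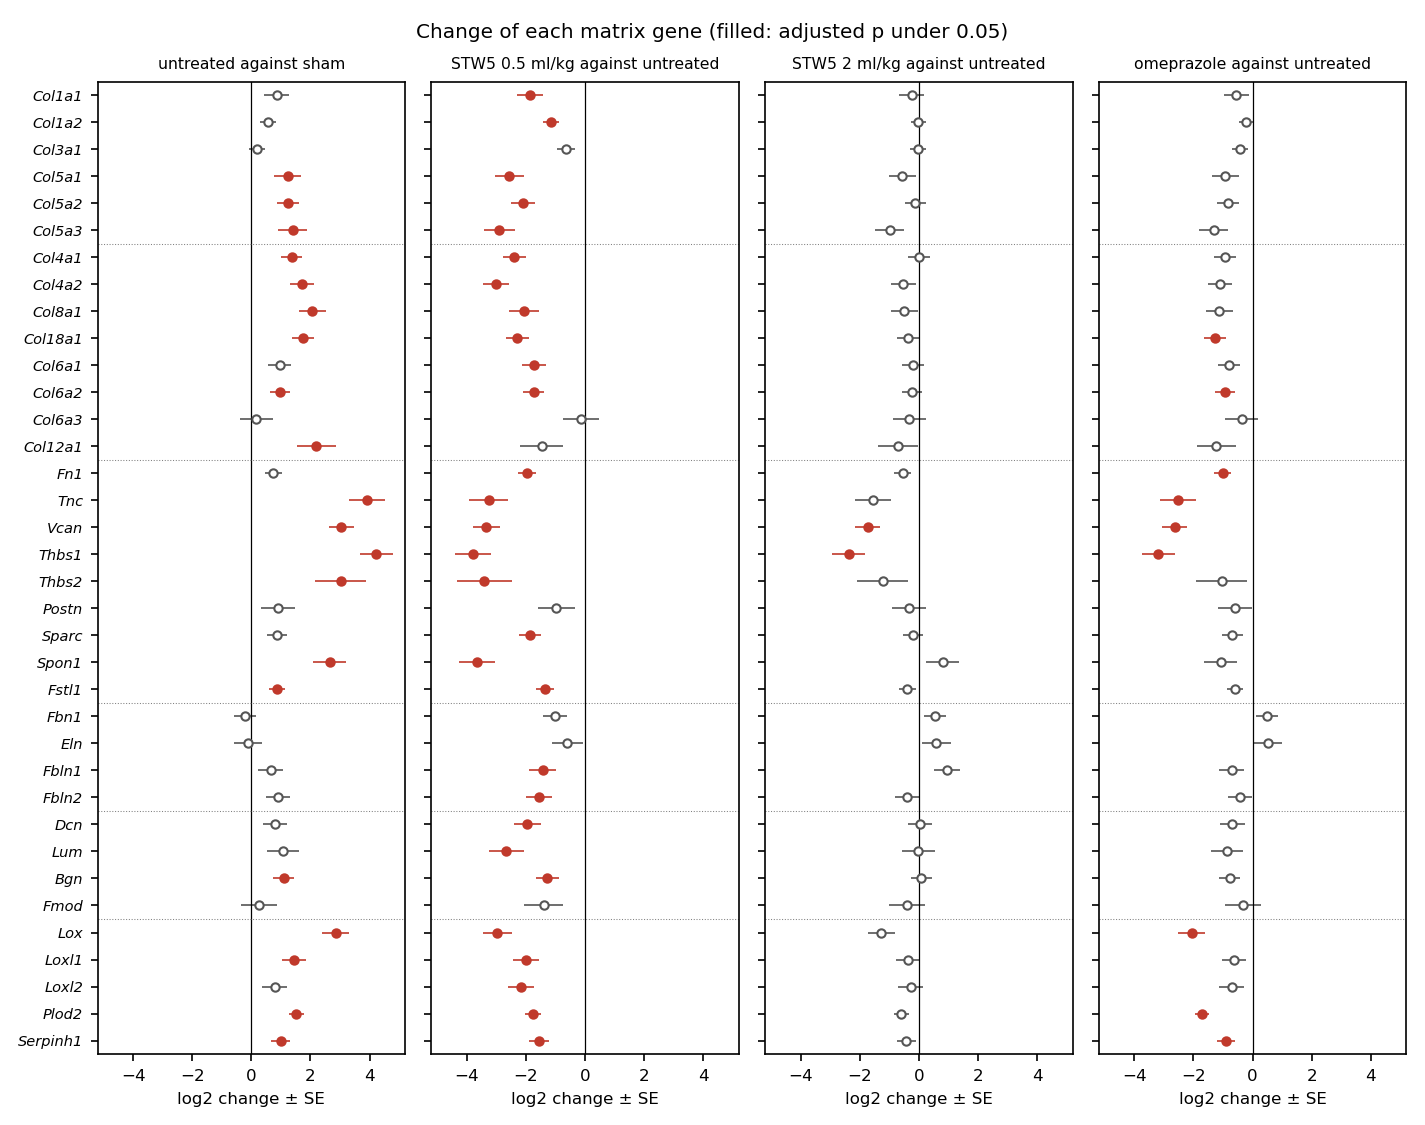
Log2 change ± SE (x axis) of each of the 36 genes (y axis, grouped by role) in untreated against sham rats and in each treated group against untreated rats, with filled points at an adjusted p under 0.05. Filled points lie right of 0 for 20 genes after surgery, and left of 0 for 29 genes in rats labelled 0.5 ml/kg, 2 in rats labelled 2 ml/kg and 9 in omeprazole rats.

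Among the 9 wound matrix and matricellular genes 6 rose after surgery, in the comparison of untreated with sham rats. Matricellular proteins bind matrix and receptors and are made in wounds more than in resting tissue. Thbs1 encodes thrombospondin 1, which platelets and stromal cells release in wounds and which can activate latent TGF-beta. Its levels were -6.85, -6.48, -6.89 and -6.62 in the sham samples and -3.49, -3.94, -0.15 and -2.34 in the untreated samples. No sham array had a signal well above background, so the rise is a bound of at least 8.27-fold, and untreated replicate 3 lay highest. The adjusted p was 0.00018 for the change as measured and 0.000626 with signals raised to the background floor. After normexp background correction, which lifts dim signals, the change was 1.45. Levels of Thbs1 were -6.43, -6.79 and -5.59 in the samples labelled 0.5 ml/kg, -5.31, -5.06, -4.59 and -4.46 in those labelled 2 ml/kg and -5.55, -5.38, -6.00 and -5.73 in those given omeprazole. In the samples labelled 0.5 ml/kg it was again not well above background on any array, at least 7.01-fold lower than in untreated rats. The adjusted p of this fall was 0.000344 as measured and 0.00137 with signals raised to the floor. With omeprazole Thbs1 was well above background on 2 of 4 arrays. Untreated samples of Thbs1 did not overlap with those of any other group. Tnc encodes tenascin C, a hexameric glycoprotein of healing wounds. It lay at -3.93, -1.26, -4.53 and -4.07 in the sham samples and 0.07, -0.17, 1.72 and 0.30 in the untreated samples, a rise of 3.93 ± 0.61 (adjusted p = 0.000374). Sham replicate 2 stood apart from the other sham samples, yet the groups did not overlap. With treatment Tnc was at -2.69, -2.92 and -2.72 in the samples labelled 0.5 ml/kg, -2.16, -1.06, -0.63 and -0.48 in those labelled 2 ml/kg and -2.65, -1.32, -1.46 and -2.71 in those given omeprazole. All treated samples lay under all untreated ones, and the fall was called in rats labelled 0.5 ml/kg (-3.26 ± 0.66, adjusted p = 0.00133) and in omeprazole rats (-2.52 ± 0.61, adjusted p = 0.00662) but missed the threshold in rats labelled 2 ml/kg (-1.56 ± 0.61, adjusted p = 0.108). Vcan, which encodes the large hyaluronan-binding proteoglycan versican, was at -2.44, -0.49, -1.58 and -0.74 in the sham samples and 1.67, 0.64, 2.80 and 1.80 in the untreated samples. It rose by 3.04 ± 0.43 (adjusted p = 0.000232), and its levels were -1.94, -1.72 and -1.18 in the samples labelled 0.5 ml/kg, -0.54, -0.06, 0.25 and 0.31 in those labelled 2 ml/kg and -0.82, -0.47, -0.92 and -1.40 in those given omeprazole. Every treated sample lay under every untreated sample, with called falls of 3.34 ± 0.46, 1.74 ± 0.43 and 2.63 ± 0.43 in that order.

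The probes for Thbs1 and Tnc, which showed the largest rises, are given here because the array files place neither in the rn4 genome, and they state which stretch of each transcript was measured.
Thbs1 probe: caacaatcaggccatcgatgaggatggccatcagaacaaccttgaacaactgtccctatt
Tnc probe: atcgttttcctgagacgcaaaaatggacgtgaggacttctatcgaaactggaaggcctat

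The 250 bases before the RefSeq start site (GRCr8, on the gene's own strand) follow for these 3 genes, because they had the largest rises after surgery.
Thbs1 promoter, chr3:125510000-125510249 (+): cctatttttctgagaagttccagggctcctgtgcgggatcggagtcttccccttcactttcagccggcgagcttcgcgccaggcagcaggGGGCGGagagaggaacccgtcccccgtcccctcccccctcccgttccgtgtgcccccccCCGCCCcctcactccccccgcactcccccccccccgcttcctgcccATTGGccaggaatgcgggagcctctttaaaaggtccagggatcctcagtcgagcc
Tnc promoter, chr5:82476132-82476381 (-): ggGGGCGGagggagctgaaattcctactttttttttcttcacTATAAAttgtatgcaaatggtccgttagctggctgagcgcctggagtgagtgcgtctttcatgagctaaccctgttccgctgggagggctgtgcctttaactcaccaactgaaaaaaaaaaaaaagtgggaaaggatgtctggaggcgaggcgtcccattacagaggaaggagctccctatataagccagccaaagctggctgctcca
Vcan promoter, chr2:22595956-22596205 (-): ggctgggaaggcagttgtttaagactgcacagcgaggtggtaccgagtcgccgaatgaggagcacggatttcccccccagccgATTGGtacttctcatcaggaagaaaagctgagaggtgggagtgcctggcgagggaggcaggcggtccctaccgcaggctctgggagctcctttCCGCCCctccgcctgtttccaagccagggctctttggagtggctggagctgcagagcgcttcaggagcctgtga
Capitals mark matches to 6 motifs that were searched: GGGCGG, the core of the GC box, CCAAT and the AP-1 site TGACTCA on either strand, TATAAA on the gene's own strand, and the CArG box and the NF-kappaB site by their consensus on either strand. Overlapping matches were all kept. All of Thbs1, Tnc and Vcan hold GGGCGG, and none of the 3 holds TGACTCA, a CArG box or an NF-kappaB site in this window. Of the 36 genes 23 matched the RefSeq promoter table, and GGGCGG was in 14 of these 23 windows (60.9%) against 32.4% of 27457 promoters. The 27457 were taken from the whole promoter table and not only from genes measured here. They are therefore not a matched background for the shares given here. CCAAT was in 8 of 23 (34.8%) against 34.3%, TATAAA in 3 (Col1a2, Tnc and Postn) against 8.38%, TGACTCA in 1 (Col6a1) against 3.98%, the NF-kappaB site in 3 (Col4a2, Fbn1 and Serpinh1) against 6.41% and the CArG box in 0 against 1.5%. These are matches of letters and were not tested for binding.

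Spon1 encodes F-spondin, a secreted matrix-attached protein with thrombospondin repeats. Its levels were -6.16, -3.92, -5.70 and -3.93 in the sham samples and -0.60, -2.13, -3.49 and -2.86 in the untreated samples, and -6.54, -5.71 and -5.54 in the samples labelled 0.5 ml/kg, -1.87, -1.65, -1.13 and -1.18 in those labelled 2 ml/kg and -3.40, -3.02, -3.10 and -3.89 in those given omeprazole. All 4 samples labelled 2 ml/kg lay high and close together, above all sham, 0.5 ml/kg and omeprazole samples, while the untreated samples were spread over a wide range. The probe was well above background on 2 of 4 sham arrays and 1 of 4 arrays labelled 0.5 ml/kg. Spon1 rose by 2.65 ± 0.56 after surgery (adjusted p = 0.00227), was 3.47 ± 0.56 higher in rats labelled 2 ml/kg than in sham rats (adjusted p = 0.00117), and its difference between the doses, 4.47 ± 0.60 (adjusted p = 0.00022), was the largest of the 36 genes. A second Spon1 probe gave 3.12 ± 0.63 after surgery and a difference between the doses of 2.79 ± 0.68. In the group labelled 2 ml/kg against untreated rats the probes had opposite signs, 0.81 ± 0.56 for the probe used and -0.76 ± 0.63 for the second, and neither was called. Fn1 encodes fibronectin, on which cells and other matrix proteins assemble. It lay at 2.42, 3.21, 3.03 and 3.66 in the sham samples and 4.07, 3.34, 4.58 and 3.32 in the untreated samples, and the change of 0.75 ± 0.29 was not called (adjusted p = 0.0596). A second Fn1 probe rose by 1.42 ± 0.37 (adjusted p = 0.00853). With treatment Fn1 was at 1.33, 2.15 and 2.09 in the samples labelled 0.5 ml/kg, 3.33, 3.03, 3.45 and 3.33 in those labelled 2 ml/kg and 2.76, 3.15, 2.61 and 2.73 in those given omeprazole. The samples labelled 0.5 ml/kg lay below every other sample of the study, and Fn1 fell by 1.97 ± 0.32 there (adjusted p = 0.000363) and by 1.01 ± 0.29 with omeprazole (adjusted p = 0.0167), where leaving out untreated replicate 3 ended the call. Thbs2, the second thrombospondin, changed by 3.02 ± 0.87 (adjusted p = 0.0143). That call was lost without sham replicate 1 and without untreated replicate 1. Fstl1, a secreted glycoprotein of stromal cells, rose by 0.87 ± 0.28 (adjusted p = 0.0234), also a call that each of these 2 samples decided. Postn (periostin, a collagen-binding protein) and Sparc (a collagen chaperone outside the cell) changed by 0.91 and 0.88 and were not called.

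**Figure D2:**
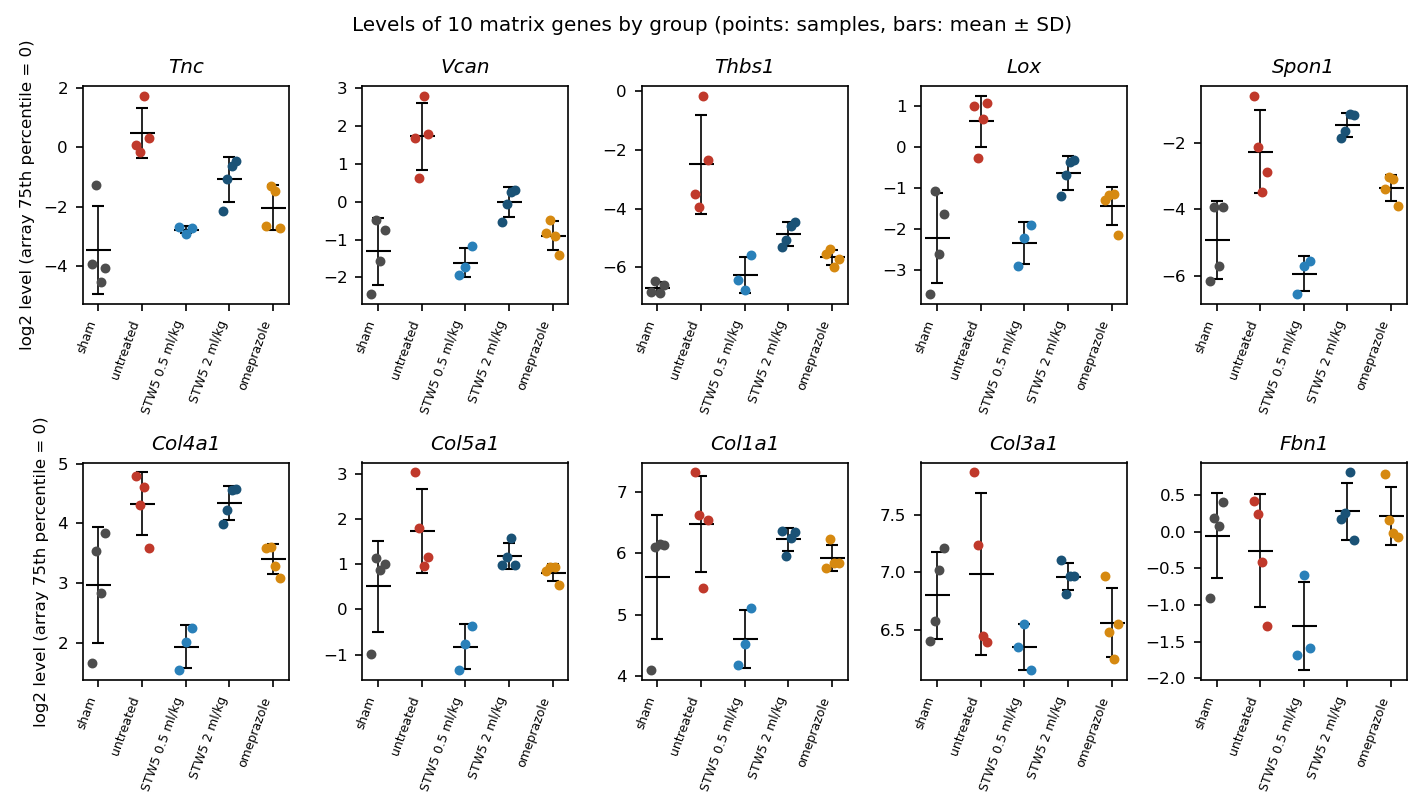
Log2 level (y axis, array 75th percentile at 0) of 10 genes in every sample by group (x axis), with the group mean and SD as bars, and n = 4 in each group except n = 3 for 0.5 ml/kg. Untreated samples of Tnc, Vcan and Thbs1 lie above all other samples, whereas samples of Col3a1 and Fbn1 overlap between the sham and untreated groups.

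All 5 enzymes and chaperones of collagen folding, hydroxylation and cross-linking had higher means after surgery, 4 of them rose, and all 5 were lower in the rats labelled 0.5 ml/kg. Lox encodes lysyl oxidase, the enzyme that starts covalent cross-links in collagen and elastin. Its levels (probe at chr18:47898302-47898361 in rn4, minus strand) were -3.59, -1.07, -2.60 and -1.65 in the sham samples and 1.01, -0.27, 0.68 and 1.08 in the untreated samples, a rise of 2.85 ± 0.45 (adjusted p = 0.000399). With treatment Lox lay at -2.91, -2.23 and -1.90 in the samples labelled 0.5 ml/kg, -1.20, -0.67, -0.37 and -0.31 in those labelled 2 ml/kg and -1.30, -1.17, -1.15 and -2.15 in those given omeprazole. No treated sample reached the lowest untreated one, and the fall was called for 0.5 ml/kg (-2.97 ± 0.49, adjusted p = 0.000403) and omeprazole (-2.07 ± 0.45, adjusted p = 0.00353) but not for 2 ml/kg (-1.26 ± 0.45, adjusted p = 0.082). Plod2 encodes a lysyl hydroxylase that acts on the collagen telopeptides and so sets the kind of cross-link formed. It was at 0.49, 0.84, 0.85 and 1.40 in the sham samples and 2.40, 1.71, 2.53 and 3.01 in the untreated samples, and at 0.52, 0.35 and 1.05 in the samples labelled 0.5 ml/kg, 1.70, 1.62, 1.87 and 2.10 in those labelled 2 ml/kg and 0.82, 0.79, 0.56 and 0.61 in those given omeprazole. Omeprazole samples lay within the sham range, samples labelled 2 ml/kg lay above every sham and omeprazole sample, and untreated replicate 4 was the highest of all. Plod2 rose by 1.52 ± 0.25 (adjusted p = 0.000441) and fell by 1.72 ± 0.25 with omeprazole (adjusted p = 0.000183).

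Loxl1, a lysyl oxidase relative that acts on elastin, was at -1.52, -0.12, -0.62 and -0.11 in the sham samples and 1.77, 1.05, 0.65 and -0.11 in the untreated samples. The lowest untreated sample lay just above the highest sham sample, and the rise was 1.44 ± 0.41 (adjusted p = 0.0129), a call lost without sham replicate 1. Its levels were -1.82, -0.69 and -0.98 in the samples labelled 0.5 ml/kg, 0.32, 0.64, 1.00 and -0.11 in those labelled 2 ml/kg and 0.86, -0.13, 0.36 and -0.23 in those given omeprazole, lowest in the 0.5 ml/kg group. Serpinh1, which encodes the collagen chaperone HSP47, lay at 2.85, 3.69, 3.67 and 4.15 in the sham samples and 5.31, 4.33, 3.67 and 5.02 in the untreated samples. Only untreated replicate 3 fell inside the sham range, and the rise of 1.00 ± 0.32 (adjusted p = 0.0228) was lost without sham replicate 1, untreated replicate 1 or untreated replicate 4. Treated samples of Serpinh1 were at 2.63, 2.86 and 3.55 in the samples labelled 0.5 ml/kg, 3.97, 4.09, 4.30 and 4.29 in those labelled 2 ml/kg and 3.85, 3.55, 3.66 and 3.69 in those given omeprazole. The fall with omeprazole, -0.90 ± 0.32, just passed the threshold (adjusted p = 0.0426) and was lost in 6 of the 8 fits that left out 1 omeprazole or untreated sample. Loxl2, which oxidises collagen IV among other substrates, was at -0.64, 0.85, 1.20 and 1.83 in the sham samples and 2.43, 1.64, 1.34 and 0.96 in the untreated samples, where untreated samples lay inside or above the sham range (0.79 ± 0.42, adjusted p = 0.162). In treated rats Loxl2 was at -1.19, -0.72 and 0.19 in the samples labelled 0.5 ml/kg, 1.28, 1.32, 1.45 and 1.23 in those labelled 2 ml/kg and 1.15, 0.67, 0.78 and 0.92 in those given omeprazole, and it fell by 2.17 ± 0.45 in rats labelled 0.5 ml/kg (adjusted p = 0.00161).

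Of the 8 basement membrane, vessel wall and bridging collagens 6 rose after surgery. Col4a1 and Col4a2 encode the chains of the collagen IV heterotrimer of all basement membranes. Col4a1 was at 1.66, 3.53, 2.83 and 3.84 in the sham samples and 4.79, 4.31, 4.61 and 3.60 in the untreated samples, and Col4a2 at -2.61, -0.60, -1.60 and -1.02 in the sham samples and 1.04, 0.16, 0.58 and -0.77 in the untreated samples. In both genes sham replicate 1 was lowest, untreated replicate 1 highest and untreated replicate 4 lowest of its group. Col4a1 rose by 1.36 ± 0.37 (adjusted p = 0.0103) and Col4a2 by 1.71 ± 0.41 (adjusted p = 0.00536). With treatment Col4a1 lay at 1.54, 2.01 and 2.25 in the samples labelled 0.5 ml/kg, 3.99, 4.22, 4.56 and 4.57 in those labelled 2 ml/kg and 3.59, 3.61, 3.29 and 3.09 in those given omeprazole. Levels of Col4a2 were -3.13, -2.83 and -2.31 in the samples labelled 0.5 ml/kg, -0.82, -0.20, 0.31 and -0.38 in those labelled 2 ml/kg and -0.55, -0.90, -0.61 and -1.38 in those given omeprazole. Samples labelled 0.5 ml/kg lay below every untreated sample in both genes, with falls of 2.39 ± 0.40 and 3.00 ± 0.45, and the change of Col4a1 with 2 ml/kg was 0.01 ± 0.37. These genes stand head to head on rat chromosome 16. In GRCr8 their RefSeq start sites lie 76 bases apart, Col4a1 on the plus strand and Col4a2 on the minus strand, and this stretch, given on the plus strand because both genes start from its ends, holds 1 GGGCGG match (capitals, read on the minus strand).
Col4a1 and Col4a2 shared stretch, chr16:84885521-84885596: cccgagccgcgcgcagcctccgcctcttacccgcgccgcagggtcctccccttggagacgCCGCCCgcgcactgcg

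Col8a1, a short-chain collagen of vessel walls, was at -3.01, -0.84, -2.51 and -0.81 in the sham samples and 0.17, 0.46, 0.89 and -0.46 in the untreated samples, without overlap, and rose by 2.06 ± 0.46 (adjusted p = 0.00315). Its treated levels were -1.82, -1.38 and -2.20 in the samples labelled 0.5 ml/kg, -0.68, -0.01, 0.17 and -0.40 in those labelled 2 ml/kg and -0.15, -0.91, -0.75 and -1.65 in those given omeprazole. Col18a1, the basement membrane collagen whose end fragment is endostatin, was at -0.23, 1.52, 0.26 and 0.46 in the sham samples and 2.97, 2.30, 2.08 and 1.66 in the untreated samples and rose by 1.75 ± 0.37 (adjusted p = 0.00242). With treatment it was at -0.50, 0.59 and -0.20 in the samples labelled 0.5 ml/kg, 1.62, 1.69, 2.00 and 2.21 in those labelled 2 ml/kg and 0.85, 1.44, 1.41 and 0.21 in those given omeprazole. In both genes the untreated samples lay above all samples labelled 0.5 ml/kg, and in Col18a1 above all omeprazole samples too. Col12a1, a collagen that decorates the surface of collagen I fibrils, was at 0.08, 2.43, -0.43 and -0.14 in the sham samples and 3.59, 2.99, 2.55 and 1.63 in the untreated samples. Sham replicate 2 lay inside the untreated range, and the rise of 2.20 ± 0.67 (adjusted p = 0.0192) was lost without sham replicate 1, sham replicate 3 or untreated replicate 1. In treated rats it was at 1.83, 2.41 and -0.58 in the samples labelled 0.5 ml/kg, 1.78, 1.71, 2.02 and 2.39 in those labelled 2 ml/kg and 0.89, 2.50, 1.91 and 0.57 in those given omeprazole, with replicate 4 labelled 0.5 ml/kg far below the others of its group. The 2 other Col12a1 probes changed more, by 2.89 and 3.24 after surgery and by -3.54 and -2.74 between rats labelled 0.5 ml/kg and untreated rats, where the probe used gave -1.47 and was not called.

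Col6a1, Col6a2 and Col6a3 encode the chains of collagen VI, the beaded filament around cells. Col6a2 rose by 0.97 ± 0.33 (adjusted p = 0.0336), a call lost without sham replicate 1 or without untreated replicate 1, 2 or 3, and Col6a1 changed by 0.96 ± 0.38 (adjusted p = 0.062). In rats labelled 0.5 ml/kg Col6a1 fell by 1.73 ± 0.41 and Col6a2 by 1.74 ± 0.36. The Col6a3 probe used changed by between -0.37 and 0.16 and was not called in any comparison. Its probes disagreed. The probe used (chr9:90000754-90000813 in rn4, minus strand) changed by 0.16 ± 0.56 after surgery and -0.15 ± 0.60 with 0.5 ml/kg, and the other (chr9:89990169-89990228) by -1.37 ± 0.59 (adjusted p = 0.0877) and 1.77 ± 0.64 (adjusted p = 0.0393). With omeprazole against untreated rats the other probe was higher by 2.92 ± 0.59 (adjusted p = 0.00224), where the probe used gave -0.37 ± 0.56, so no direction is given for this gene.

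Of the fibrillar collagens, the collagen V chains rose after surgery and those of collagens I and III did not pass the test. Collagen V is a minor fibril collagen that starts collagen I fibrils and limits their width. Col5a1 was at -0.98, 1.14, 0.87 and 1.02 in the sham samples and 3.04, 1.80, 0.96 and 1.17 in the untreated samples, and Col5a2 at 0.70, 2.21, 1.86 and 2.30 in the sham samples and 4.17, 3.04, 2.51 and 2.32 in the untreated samples. Col5a3 lay at -0.11, 1.79, 1.56 and 2.50 in the sham samples and 4.36, 2.65, 2.09 and 2.27 in the untreated samples. In all 3 untreated replicate 1 was highest and sham replicate 1 lowest, and only in Col5a2 did the groups not overlap. The rises were 1.23 ± 0.45 for Col5a1 (adjusted p = 0.0439), 1.25 ± 0.36 for Col5a2 (adjusted p = 0.0151) and 1.40 ± 0.49 for Col5a3 (adjusted p = 0.0379). A second Col5a2 probe changed by 0.75 ± 0.38 and was not called (adjusted p = 0.147). None of the 3 calls held without sham replicate 1 or without untreated replicate 1. Those of Col5a1 and Col5a3 were also lost without sham replicate 3, and that of Col5a1 without untreated replicate 2. In treated rats Col5a1 was at -1.35, -0.76 and -0.36 in the samples labelled 0.5 ml/kg, 0.99, 1.16, 1.59 and 0.99 in those labelled 2 ml/kg and 0.85, 0.94, 0.94 and 0.54 in those given omeprazole. Col5a2 was at 0.53, 0.85 and 1.36 in the samples labelled 0.5 ml/kg, 2.75, 2.82, 3.17 and 2.84 in those labelled 2 ml/kg and 2.23, 2.22, 2.19 and 2.11 in those given omeprazole. Col5a3 was at -0.57, -0.17 and 0.57 in the samples labelled 0.5 ml/kg, 1.64, 1.61, 2.11 and 2.05 in those labelled 2 ml/kg and 1.28, 1.80, 1.62 and 1.38 in those given omeprazole. Samples labelled 0.5 ml/kg were the lowest treated samples in each of these genes, and they lay under all untreated ones, with falls of 2.57 ± 0.48, 2.10 ± 0.39 and 2.90 ± 0.53.

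Col1a1, the alpha 1 chain of collagen I, was at 4.10, 6.10, 6.15 and 6.13 in the sham samples and 7.32, 6.62, 5.43 and 6.54 in the untreated samples. Sham replicate 1 lay about 2 log2 units below the other sham samples, which were all within the untreated range. Treated levels were 4.18, 4.53 and 5.12 in the samples labelled 0.5 ml/kg, 6.37, 5.97, 6.25 and 6.35 in those labelled 2 ml/kg and 5.77, 6.23, 5.85 and 5.84 in those given omeprazole. Col1a2, the alpha 2 chain, was at 5.30, 6.38, 6.65 and 6.64 in the sham samples and 7.01, 6.80, 6.35 and 7.08 in the untreated samples, and at 5.26, 5.71 and 6.01 in the samples labelled 0.5 ml/kg, 6.96, 6.62, 6.69 and 6.89 in those labelled 2 ml/kg and 6.74, 6.68, 6.41 and 6.54 in those given omeprazole. Both genes were lower in rats labelled 0.5 ml/kg than in untreated rats, Col1a1 by 1.87 ± 0.45 (adjusted p = 0.0042) and Col1a2 by 1.15 ± 0.28 (adjusted p = 0.00449), with no overlap. Col3a1, the collagen III chain, was not called in any of the 9 comparisons, and its largest change was -0.64 ± 0.30 in the same contrast (adjusted p = 0.103).

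The elastic fibre genes and the small leucine-rich proteoglycans had the fewest calls after surgery, with 0 of 4 and 1 of 4 called. Bgn (biglycan) was the one that rose, from 4.08, 5.59, 5.24 and 5.70 in sham samples to 7.19, 6.50, 5.67 and 5.60 in untreated samples (1.09 ± 0.36, adjusted p = 0.0276). Sham replicate 1 was the lowest of these samples, and the call was lost without sham replicate 1 or 3 and without untreated replicate 1 or 2. With treatment Bgn was at 4.66, 5.07 and 5.17 in the samples labelled 0.5 ml/kg, 6.18, 6.11, 6.39 and 6.63 in those labelled 2 ml/kg and 5.90, 5.55, 5.36 and 5.07 in those given omeprazole. Lum (lumican, which spaces collagen fibrils) was at -1.30, 0.40, 0.25 and 0.23 in the sham samples and 2.52, 1.09, 0.21 and 0.06 in the untreated samples and Dcn (decorin, which binds collagen fibrils and TGF-beta) at 3.13, 3.76, 4.38 and 4.56 in the sham samples and 4.84, 4.64, 5.26 and 4.31 in the untreated samples. In both genes untreated samples overlapped with sham samples, and changes were 1.07 ± 0.55 and 0.80 ± 0.42. Levels of Lum were -2.66, -2.04 and -0.41 in the samples labelled 0.5 ml/kg, 0.92, 1.12, 1.21 and 0.57 in those labelled 2 ml/kg and -0.71, 0.12, 0.65 and 0.40 in those given omeprazole. Levels of Dcn were 1.72, 2.48 and 4.22 in the samples labelled 0.5 ml/kg, 4.76, 4.86, 4.94 and 4.64 in those labelled 2 ml/kg and 3.99, 3.75, 3.90 and 4.68 in those given omeprazole. Both were lower in rats labelled 0.5 ml/kg than in untreated rats, by 2.67 ± 0.59 (adjusted p = 0.00238) and 1.95 ± 0.45 (adjusted p = 0.00314), although replicate 4 of that group stood apart from the other samples and near the lowest untreated sample. Fmod (fibromodulin) was not called in any comparison.

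Fbln1, the fibulin 1 gene, was at -2.40, -0.83, -0.88 and -0.61 in the sham samples and -0.56, 0.24, -0.05 and -1.73 in the untreated samples. The groups overlapped (0.65 ± 0.43, adjusted p = 0.257), and sham replicate 1 lay far below the other sham samples. In treated rats Fbln1 was at -2.66, -2.17 and -1.05 in the samples labelled 0.5 ml/kg, 0.45, 0.23, 0.54 and 0.49 in those labelled 2 ml/kg and -1.51, -1.21, -1.23 and -0.96 in those given omeprazole. All samples labelled 2 ml/kg lay above every sham, 0.5 ml/kg and omeprazole sample, and their level exceeded sham by 1.61 ± 0.43 (adjusted p = 0.0299) and 0.5 ml/kg by 2.39 ± 0.46 (adjusted p = 0.00317). Fbln2 was at -1.89, -0.65, -0.73 and -0.39 in the sham samples and 1.04, 0.32, -0.44 and -0.90 in the untreated samples, and Fbn1 (fibrillin 1, the scaffold of elastic fibres) at -0.91, 0.19, 0.09 and 0.41 in the sham samples and 0.42, 0.24, -0.41 and -1.29 in the untreated samples. Neither separated the groups. Fbln2 was at -2.09, -1.46 and -1.07 in the samples labelled 0.5 ml/kg, -0.70, -0.03, 0.05 and -0.94 in those labelled 2 ml/kg and 0.11, -0.87, -0.55 and -0.39 in those given omeprazole. Fbn1 was at -1.69, -0.60 and -1.59 in the samples labelled 0.5 ml/kg, 0.17, 0.25, 0.81 and -0.12 in those labelled 2 ml/kg and 0.79, 0.16, -0.02 and -0.08 in those given omeprazole. Fbln2 fell by 1.55 ± 0.44 in rats labelled 0.5 ml/kg (adjusted p = 0.0115), while the change of Fbn1 there missed the threshold (-1.03 ± 0.41, adjusted p = 0.0551). Eln (elastin) changed by -0.11 after surgery and was not called in any comparison.

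Over all 36 genes, most were lower in rats labelled 0.5 ml/kg than in untreated rats. In this comparison, within slide 2, 29 genes were lower and 0 higher, against 15.9% of all genes called lower and 37.6% called in either direction, and all 36 means were lower (35 after normexp, where Col6a3 turned). The median change was -1.91 beside 0.17 for all genes. Arrays labelled 0.5 ml/kg were also dimmer, with a 75th percentile of 563 to 636 units against 612 to 856 on untreated arrays and 61.5% to 64.3% of features well above background against 64.9% to 69.0%, and the part of signal strength in these falls was not tested. In 28 genes the samples did not overlap, against 15.3% of all genes lower without overlap. The list was lower by role in 8 of 9 wound matrix genes, 5 of 5 processing genes, 5 of 6 fibrillar collagens, 6 of 8 other collagens, 3 of 4 proteoglycans and 2 of 4 elastic fibre genes. Calls for 26 genes held whichever 1 sample was left out. Fbln1 was lost without replicate 3 or the averaged sample labelled 0.5 ml/kg and without untreated replicate 2 or 3, Fbln2 without the averaged sample, and Bgn without the averaged sample or untreated replicate 1.

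Fewer genes were called in the other treated groups. Against untreated rats, 2 genes fell with 2 ml/kg, Vcan by 1.74 ± 0.43 and Thbs1 by 2.38 ± 0.56, where 4.37% of all genes were called lower and 9.49% in either direction. In 4 genes every sample labelled 2 ml/kg lay under every untreated sample, against 7.96% of all genes. Neither Vcan nor Thbs1 was called without replicate 1 labelled 2 ml/kg, only Thbs1 was without untreated replicate 3, and without untreated replicate 2 Lox and Plod2 were called as well. The share of all calls that were higher was 54% here, but 44% after quantile normalisation and 40.1% after median scaling. With omeprazole 9 genes fell and 0 rose, against 12.2% of all genes called lower and 27.7% in either direction. In 11 genes the samples did not overlap, against 12.6% of all genes. The 9 genes called were Tnc, Vcan, Thbs1, Fn1, Lox, Plod2, Serpinh1, Col18a1 and Col6a2, of which Lox, Plod2, Thbs1, Tnc and Vcan were called whichever sample was left out. Col18a1 was lost without omeprazole replicate 4 or untreated replicate 1, Fn1 without untreated replicate 3, and Col6a2 and Serpinh1 in most of these fits. Of all calls with omeprazole 56.1% were higher, 42.1% after quantile normalisation and 33.7% after median scaling, which called 16 of the 36 genes. The share of all genes called lower with median scaling is not given here, so no excess is read from that count. The median change of the 36 genes was -0.35 with 2 ml/kg and -0.84 with omeprazole. These 3 comparisons share the untreated samples.

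**Figure D3:**
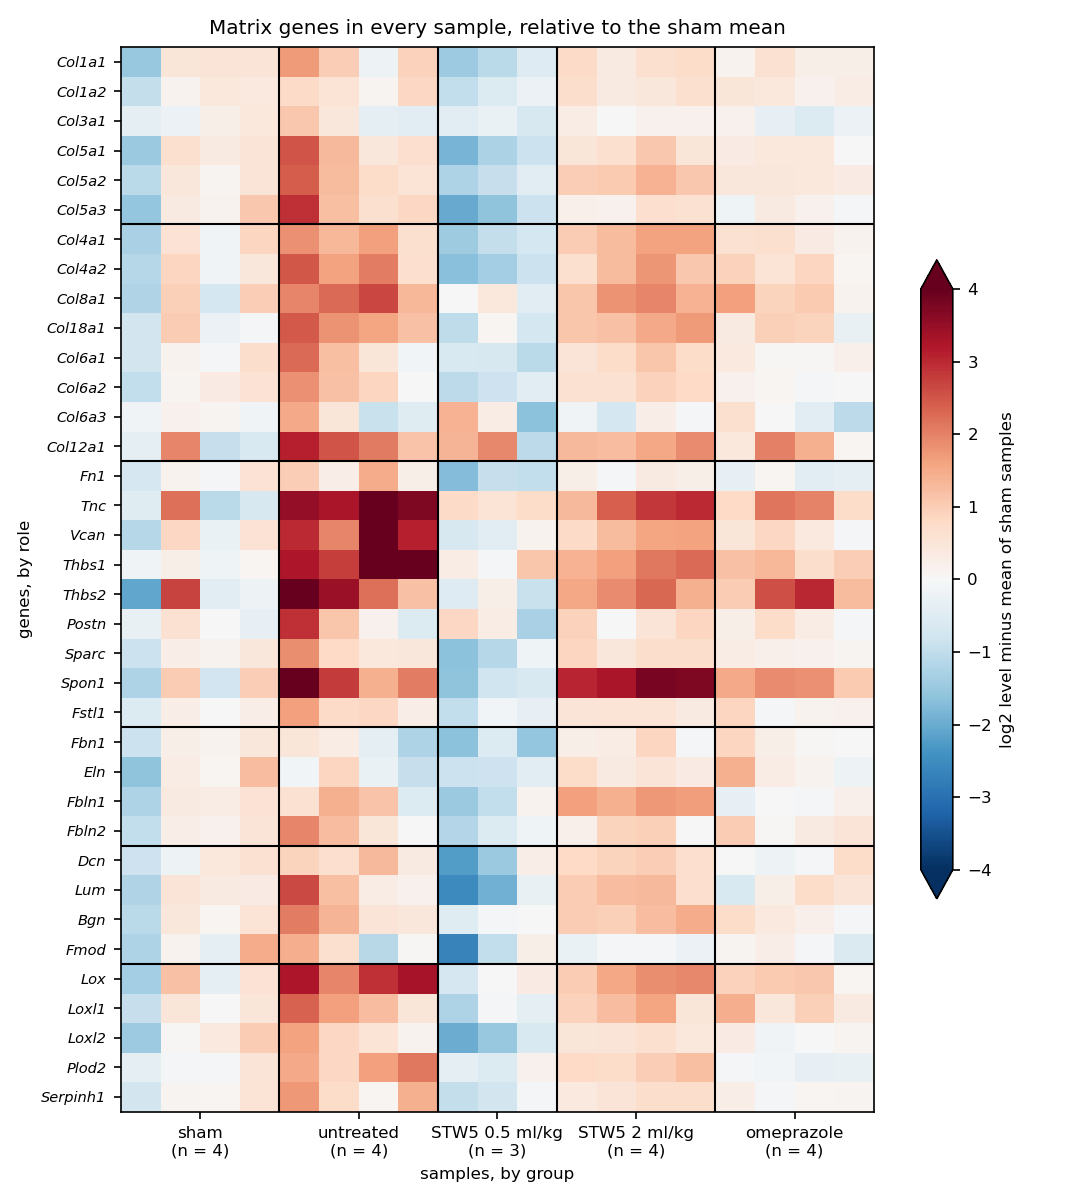
Log2 level minus the mean of the sham samples (colour, with values past the ends of the scale shown in the end colours) for 36 genes (y axis, by role) in 19 samples (x axis, by group). Untreated samples and those labelled 2 ml/kg are mostly red, samples labelled 0.5 ml/kg mostly blue, and sham replicate 1 at the far left is blue in nearly every gene.

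Against sham rats, genes were called in the group labelled 2 ml/kg and in neither of the others. No gene was called between rats labelled 0.5 ml/kg and sham rats in limma's adjusted test, where 0.00735% of all genes were called. An unadjusted p under 0.05 was found for 13 of the 36 genes, beside 1082 of all 13597 genes. The low group's mean was under that of sham in 32 genes (33 after quantile or median scaling), and the median change was -0.67. In the omeprazole group 0 genes were called either, against 1.57% of all genes, and 30 means were above sham (23 after median scaling). There 3 of the 36 genes had an unadjusted p under 0.05, beside 1480 of all 13597 genes. Between rats labelled 2 ml/kg and sham 9 genes were higher and 0 lower, against 6.05% of all genes called higher and 8.55% in either direction. The 9 genes were Spon1, Col4a1, Col8a1, Col18a1, Tnc, Thbs1, Fbln1, Lox and Plod2, and the excess of Thbs1 over sham, as a bound, was at least 1.59-fold. The call of Thbs1 was lost after normexp (0.075, adjusted p = 0.899) and with signals raised to the background floor (0.67, adjusted p = 0.431). In 13 genes the samples did not overlap, against 9.8% of all genes. The count of 9 calls rested on single samples. It was 1 (Spon1) without sham replicate 1, sham replicate 3, or replicate 3 or 4 labelled 2 ml/kg, 2 (Spon1 and Plod2) without replicate 2 labelled 2 ml/kg, 6 without replicate 1 labelled 2 ml/kg, and 14 without sham replicate 2. Of all genes called there, 70.8% were higher, 61.5% after quantile normalisation and 52.7% after median scaling. The untreated group had the highest mean in 29 of the 36 genes and the 2 ml/kg group in the other 7, while the 0.5 ml/kg group had the lowest mean in 32. The omeprazole mean lay between those of sham and untreated in 28 genes, and the 2 ml/kg mean in 27. These comparisons share the sham samples.

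Samples under the 2 dose labels of STW5 differed from each other in most of these genes, with the larger labelled dose higher. Of the 36 genes 26 were higher in rats labelled 2 ml/kg and 0 lower, against 10.7% of all genes called higher and 23.9% in either direction, with a median of 1.59 beside -0.15 for all genes. In 32 genes the samples did not overlap, against 15.2% of all genes. Besides Spon1 the largest differences were those of Lum (2.66 ± 0.59), Col4a2 (2.48 ± 0.45), Col4a1 (2.40 ± 0.40) and Fbln1 (2.39 ± 0.46). Leaving out the averaged sample labelled 0.5 ml/kg lowered the count from 26 to 7, which were Col18a1, Col4a1, Col4a2, Col5a2, Fbln1, Plod2 and Spon1. The same 7 genes were called whichever 1 sample was left out. With the doses as in the deposited values 28 genes were called and 28 of these were lower with 2 ml/kg. For that fit the share of all genes called is not given here.

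The comparison of the group labelled 2 ml/kg with omeprazole lies within slide 3. No gene was called in limma's fit over all groups, where 0.221% of all genes were. Of the 36 genes 6 had an unadjusted p under 0.05, beside 2435 of all 13597 genes. Means were nevertheless higher with 2 ml/kg in 34 of 36 genes, the median difference was 0.49 beside -0.07 for all genes, and in 14 genes all samples labelled 2 ml/kg lay above all omeprazole samples, against 7.96% of all genes. The largest differences were those of Spon1 (1.89 ± 0.56, adjusted p = 0.151), Fbln1 (1.66 ± 0.43, adjusted p = 0.123) and Plod2 (1.13 ± 0.25, adjusted p = 0.0729). A fit of these 2 groups alone called 9 genes, all higher with 2 ml/kg: Col5a2, Col4a1, Col6a1, Col6a2, Sparc, Spon1, Fbln1, Bgn and Plod2. The share of 0.221% belongs to the fit over all groups and is not the background of this count. The share of all genes called in the fit of 2 groups is not given here, so no excess is read from it. The spread within these groups was smaller than elsewhere, with a median SD of the 36 genes of 0.267 (2 ml/kg) and 0.352 (omeprazole) against 0.742 (sham) and 0.778 (untreated), and the fit over all groups uses 1 common spread.

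**Figure D4:**
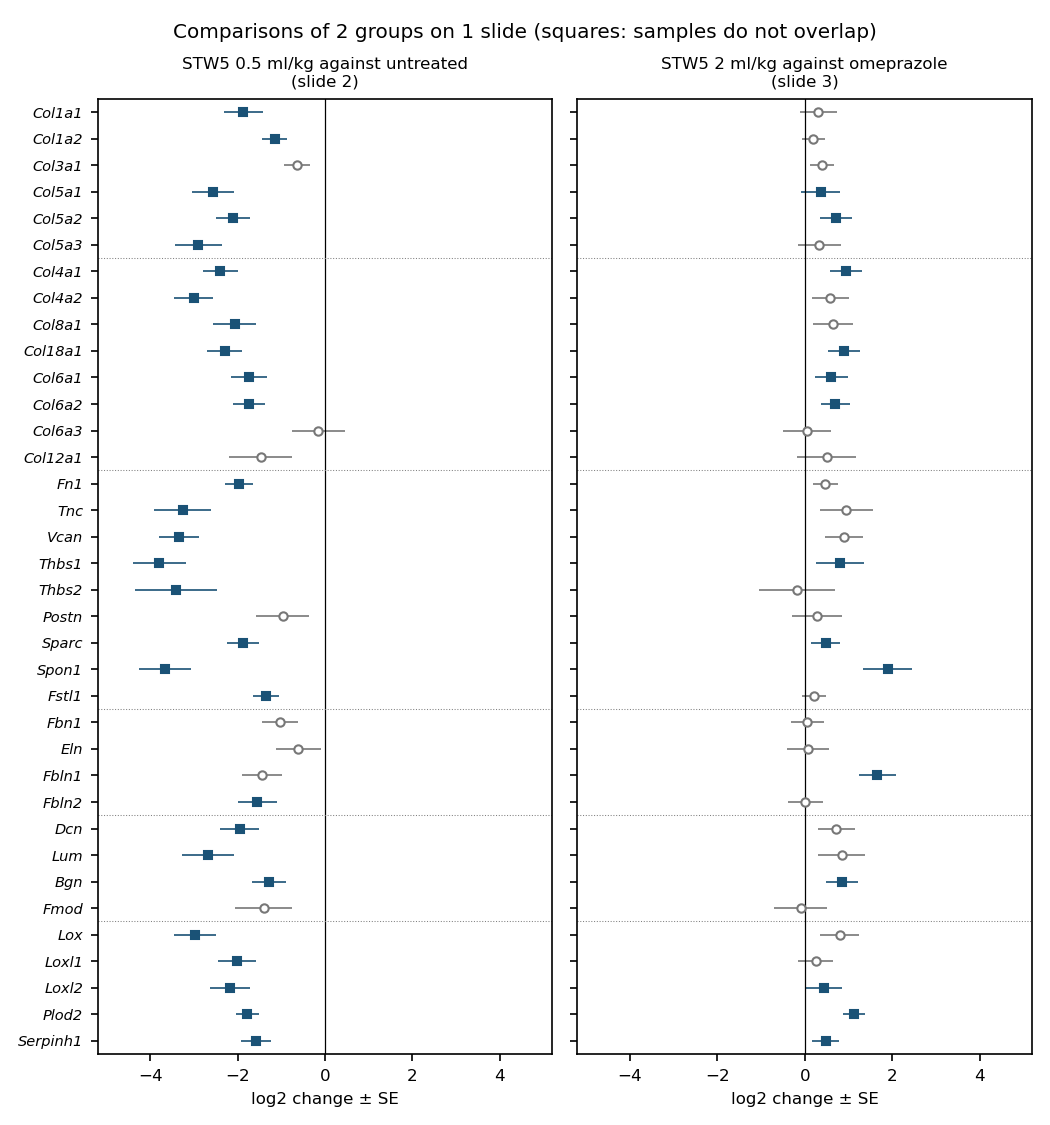
Log2 change ± SE (x axis) of each gene (y axis, by role) in the comparisons whose groups share a slide, with squares where the samples do not overlap. All 36 points lie left of 0 for 0.5 ml/kg against untreated, and 34 lie right of 0 for 2 ml/kg against omeprazole.

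Within groups, single samples often set the ends of the range. Sham replicate 1 had the lowest level of its group in 32 of 36 genes, and the 75th percentile of its signal was 574 units against 674 to 849 for the other sham arrays. The mean level of the 36 genes was -0.16 in that sample and 0.77 to 1.35 in the other sham samples. Untreated replicate 1 was highest in 25 genes, with a mean level of 2.92 against 1.60 to 2.17 in the other untreated samples, but untreated replicate 3 was the highest for Tnc, Vcan, Thbs1 and Fn1. Samples labelled 2 ml/kg lay between 1.62 and 2.00, omeprazole samples between 0.95 and 1.34 and samples labelled 0.5 ml/kg between -0.16 and 0.39. Whether signal strength plays a part in the low values of sham replicate 1 was not tested.

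Genes that act next to these in the same pathways were read from lists chosen with earlier results of these data known. After surgery 15% of all genes were called higher, 17.9% lower and 32.9% in either direction. Against untreated rats 15.9% of all genes were called lower with 0.5 ml/kg, 4.37% with 2 ml/kg and 12.2% with omeprazole. The counts below are to be read beside these shares. Of 18 measured further collagen processing enzymes 12 rose after surgery and 1, P3h2 (named after its value was seen), fell. With the smallest p were P3h1, a prolyl 3-hydroxylase (1.46 ± 0.25, adjusted p = 0.000588), Plod3, a lysyl hydroxylase with glycosyltransferase activity (1.62 ± 0.30, adjusted p = 0.00106), and P4ha3, a subunit of prolyl 4-hydroxylase (2.59 ± 0.53, adjusted p = 0.00189). In rats labelled 0.5 ml/kg 15 of the 18 were lower and 0 higher than in untreated rats, with omeprazole 10 lower and 1 higher, and with 2 ml/kg 3 lower and 0 higher. Of 19 genes of the TGF-beta pathway, which drives collagen synthesis in fibroblasts, 8 rose and 1 fell after surgery. The ligand gene Tgfb1 rose by 2.27 ± 0.38 and Tgif1, a repressor of the pathway, by 1.55 ± 0.27. In rats labelled 0.5 ml/kg 8 of the 19 fell, and Tgfb1 was lower than in untreated rats by 2.39 ± 0.41. Of 16 matrix receptors 5 rose and 2 fell. Itga5, the fibronectin receptor subunit, rose by 2.19 ± 0.45, Itgb3 rose by 1.38 ± 0.34, and the epithelial collagen receptor Ddr1 fell by 1.00 ± 0.21. Of 11 other collagens 3 rose and 2 fell, among them Col16a1 (1.68 ± 0.47), Col17a1 of epithelial hemidesmosomes (-1.21 ± 0.27) and Col4a5 (-1.60 ± 0.36). Of 9 laminins and other basement membrane proteins 0 were called after surgery in limma's test and 4 were lower in rats labelled 0.5 ml/kg.

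Markers of cell types in the tissue were read from lists also chosen with earlier results known. The lists moved in different directions after surgery. Of all genes 15% were called higher and 17.9% lower after surgery. Against untreated rats 15.9% of all genes were called lower with 0.5 ml/kg, 4.37% with 2 ml/kg and 12.2% with omeprazole. Of 10 fibroblast markers 6 rose after surgery (Vim, Pdgfrb, Pdgfra, Thy1, Fap and Tcf21) and 0 were called lower, while the change was negative in 2. Against untreated rats 5 were lower and 0 higher with 0.5 ml/kg. With 2 ml/kg 1 was lower and 1 higher, and with omeprazole 3 were lower and 1 higher. The mean level of the fibroblast list ran from -1.25 to -0.40 in sham and from -0.11 to 0.61 in untreated samples. It ran from -1.42 to -0.78 in samples labelled 0.5 ml/kg, from 0.40 to 0.69 in those labelled 2 ml/kg and from -0.49 to 0.09 with omeprazole. Of 8 endothelial markers 5 rose after surgery and 6 were lower in rats labelled 0.5 ml/kg. Their mean level was -1.97 to -1.27 in sham, -0.88 to -0.29 in untreated, -2.66 to -1.67 in 0.5 ml/kg, -0.95 to -0.52 in 2 ml/kg and -1.39 to -0.56 in omeprazole samples. All 10 macrophage markers rose after surgery and fell in rats labelled 0.5 ml/kg and omeprazole rats, 2 of them fell with 2 ml/kg, and of 7 neutrophil markers 5 rose. Macrophage list means were -0.78 to 1.08 in sham, 2.51 to 3.70 in untreated, -1.18 to 0.67 in 0.5 ml/kg, 1.42 to 2.29 in 2 ml/kg and 0.27 to 1.02 in omeprazole samples. In the other direction 4 of 8 smooth muscle and myofibroblast markers and 5 of 10 squamous epithelium markers fell after surgery. In either of these lists 0 were called higher. Of 10 skeletal muscle markers 6 fell and 1 was called higher. Acta2, the actin of myofibroblasts and smooth muscle, was not called, with a change of -0.02 ± 0.39. All skeletal muscle and squamous markers were well above background on all 20 arrays, and both tissues are part of the rat oesophagus. Markers of neighbouring tissue were partly measured. Of 4 mesothelium markers 2 were measured, and Wt1 rose after surgery by 2.63 ± 0.88 and changed against untreated rats by -3.49 ± 0.95 in rats labelled 0.5 ml/kg and -3.23 ± 0.88 with omeprazole, while Msln was not called after surgery. Lrrn4 and Upk3b were well above background on 2 and 3 arrays. Of 7 stomach markers 5 were measured and 0 were called in any of these comparisons, with Muc5ac well above background on 0 arrays. Of 4 thyroid markers 3 were measured and Pax8 rose by 1.01 ± 0.25 and was lower in all 3 treated groups than in untreated rats, with Tg well above background on 2 arrays. Comp, the 1 of 6 cartilage markers that was measured, changed against untreated rats by -1.09 ± 0.32 with 0.5 ml/kg and -1.16 ± 0.30 with omeprazole, and Acan, Matn1 and Matn3 were well above background on 0 arrays. Of 5 adipocyte markers 3 were measured, 0 were called after surgery and 1 was lower with 0.5 ml/kg. Their part in the changes of the matrix genes was not tested.

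**Figure D5:**
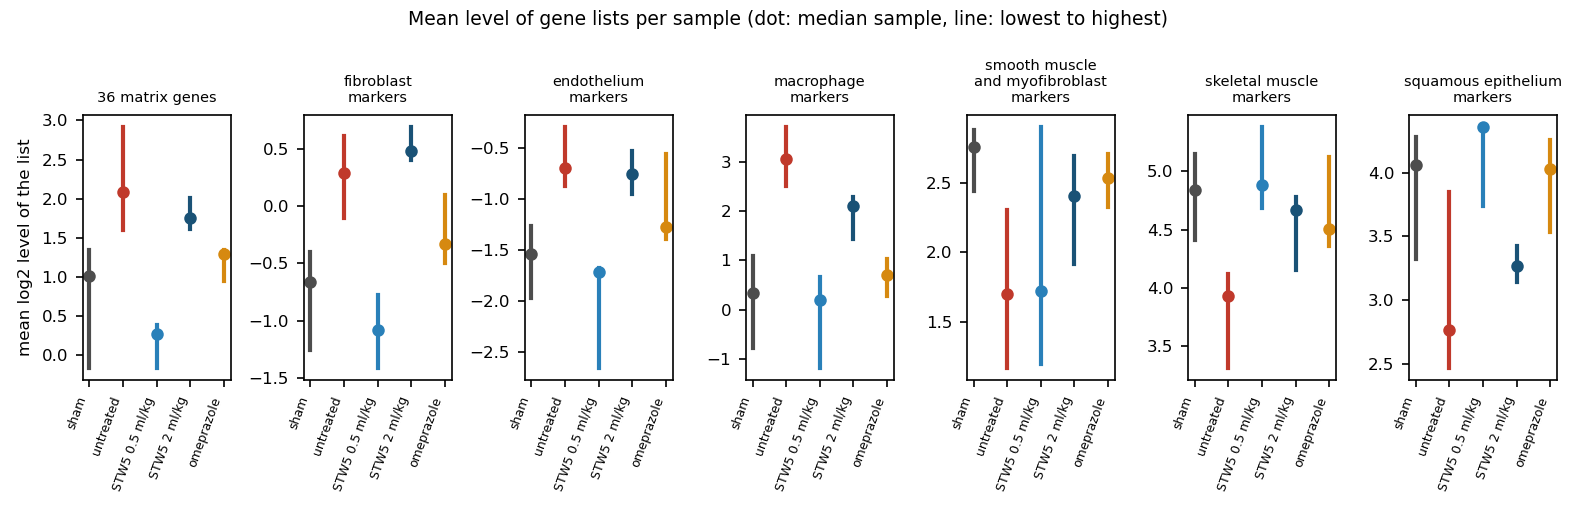
Mean log2 level (y axis) of the 36 genes and of 6 marker lists in each group (x axis), with a dot for the median sample and a line from the lowest to the highest sample. The fibroblast, endothelial and macrophage lists lie higher in untreated than in sham samples, and the muscle and squamous lists lower.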

How the data were processed

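The authors' scanner files hold 1-colour signal intensity, background-subtracted and detrended by Agilent Feature Extraction 10.7.3.1 per the file headers, and not scaled between arrays. In the deposited series table a value is the ratio of a probe's intensity to the median of its array (1 in every column), and this served as an alternative. Which dose its 8 exchanged STW5 columns belong to is unknown. Spots of a probe were averaged as log2 intensity without outlier spots, the array's 75th percentile was subtracted, and probes well above background on at least 4 arrays were kept (16096 probes). Each gene was read from its brightest probe. Members were matched by the array's gene name and probe positions are those of the array files (rn4). Exon, intron and UTR annotation of that build was not used here.

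Groups were compared with limma 3.58.1 (lmFit and eBayes, R 4.3.3) in 1 fit of 5 groups and 19 samples, with 14 residual degrees of freedom, and p-values were adjusted over 13597 genes. A fold against a group with no array well above background is a bound against the lowest spot well above background on each array of that group. The script was tested on simulated data. All 36 genes may be named. Every sample's value is given in each role group for up to 5 genes, the 3 with the largest change after surgery and then those called elsewhere by smallest p, and up to 3 genes are named from each pathway list, of which 1 is not reported here. The members and the gene lists were chosen with earlier results of these data known. Alternatives covered scaling, background correction, probe choice, filters, the value table and leaving out each sample.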

Additional observations from a re-analysis of the deposited data

Results flagged for a closer look

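In 5 of 144 groups of 4 samples the highest or lowest sample lay further from its group than Dixon's critical value, where chance gives about 1 in 20. Sham replicate 1 was the lowest sample in 4 of them. Col1a1 was at 4.10 there against 6.10 to 6.15 in the other sham samples, Col5a1 at -0.98 against 0.87 to 1.14, Fbln1 at -2.40 against -0.88 to -0.61, and Lum at -1.30 against 0.23 to 0.40. Omeprazole replicate 4 was lowest for Lox, at -2.15 against -1.30 to -1.15. The counts without sham replicate 1 stand with each comparison that it enters.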

How the results depend on the processing

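Leaving out 1 sample at a time gave 10 to 24 of the 36 genes called in untreated against sham, 26 to 31 in 0.5 ml/kg and 0 to 4 in 2 ml/kg against untreated, and 6 to 13 in omeprazole against untreated. Against sham it gave 0 to 1 with 0.5 ml/kg, 1 to 14 with 2 ml/kg and 0 to 1 with omeprazole. It gave 7 to 26 between the doses and 0 to 0 between 2 ml/kg and omeprazole. A fit of only the 2 groups compared called 9 genes in untreated against sham, 0 in 2 ml/kg against untreated, 5 in 2 ml/kg and 1 in omeprazole against sham, and 9 in 2 ml/kg against omeprazole. This fit serves as the within-slide value for the 2 comparisons whose groups share a slide, so a slide block adds no separate one. Its count for 0.5 ml/kg against untreated is not given here. The shares of all genes called in the alternative fits are not given here. Against untreated, 2 ml/kg gave 4 genes after normexp and 1 with probes well above background on all arrays, and omeprazole 16 with median scaling. Between 2 ml/kg and omeprazole, normexp called 2 genes, and 1 each was called with quantile normalisation, with signals raised to the background floor and with the replicate block. With all 20 arrays as separate samples and the replicate number as a block, the counts were 19 in untreated against sham, 31, 2 and 8 in the treated groups against untreated, 0, 9 and 0 against sham, and 30 between the doses. Same-numbered samples of different groups had correlations of -0.32 to 0.58 (median 0.08), and differently numbered ones of -0.52 to 0.64 (median -0.007). These ranges overlap and cannot decide whether the numbers pair the samples, and the main fit used no pairing. The median of all genes moved with the scaling by over 0.1 for omeprazole, which was 0.10 against untreated and 0.01 against sham with the 75th percentile, -0.03 and -0.08 with quantile normalisation and -0.10 and -0.21 with median scaling. With normexp the change of Thbs1 in omeprazole against sham, which was not called, turned to -0.15, and that between the doses to -0.13.

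The authors' value table under its own labels exchanges the doses. It called 19 genes in untreated against sham, 2 in 0.5 ml/kg and 31 in 2 ml/kg against untreated, 4 in 0.5 ml/kg and 0 in 2 ml/kg against sham, 13 in 2 ml/kg against omeprazole, and 28 between the doses with every direction reversed. Turned signs are listed only for genes called in this fit or in the main fit, and uncalled changes that turned are left out. The changes with turned signs were, in 2 ml/kg against 0.5 ml/kg, Col1a1 -1.61, Col1a2 -1.09, Col5a1 -2.03, Col5a2 -1.97, Col5a3 -1.97, Col4a1 -2.43, Col4a2 -2.51, Col8a1 -1.47, Col18a1 -1.96, Col6a1 -1.41, Col6a2 -1.47, Fn1 -1.45, Tnc -1.70, Vcan -1.64, Sparc -1.69, Spon1 -4.58, Fstl1 -0.93, Fbn1 -1.54, Fbln1 -2.45, Fbln2 -1.11, Dcn -2.12, Lum -2.73, Bgn -1.36, Lox -1.80, Loxl1 -1.64, Loxl2 -1.91, Plod2 -1.12 and Serpinh1 -1.14. In 2 ml/kg against omeprazole they were Col1a1 -1.21, Col1a2 -0.82, Col5a1 -1.56, Col5a2 -1.16, Col5a3 -1.49, Col4a1 -1.35, Col4a2 -1.78, Sparc -1.14, Spon1 -2.52, Fbn1 -1.39, Lum -1.85, Loxl1 -1.33 and Loxl2 -1.40. They were Col4a1 -2.39, Spon1 -3.71, Fbn1 -1.03, Fbln1 -1.50, Dcn -2.12 and Bgn -1.25 in 2 ml/kg against untreated and Col4a1 -1.11, Col18a1 -0.64, Spon1 -1.14, Fbln1 -0.94, Lox -0.24 and Plod2 -0.26 against sham. In 0.5 ml/kg they were Col4a1 0.046, Spon1 0.87, Fbln1 0.94 and Bgn 0.10 against untreated and Col4a1 1.32, Col18a1 1.32 and Spon1 3.44 against sham. Once each STW5 column was given the dose of the scanner file it matches, an alternative chosen after seeing the data, no sign of a called change turned, and the counts were 20, 29, 2 and 13 in the first 4 comparisons and 26 between the doses. The mean of all probes of a gene gave Col6a3 a change of 1.28 with omeprazole against untreated, where its probes disagree.

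With 3 or 4 arrays per group the precision is limited by their number, and Thbs1 and Spon1 lie near background in the sham and 0.5 ml/kg groups, where their levels are bounds or rest on few arrays. Thbs1 also lies near background in the omeprazole group, with 2 of 4 arrays well above it.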
